A study of Mus musculus with 30 samples.

Results

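The comparison described here set all LSK libraries of EAP mice against all LSK libraries of wild type mice in a mouse model of the myeloid neoplasms that follow cytotoxic therapy. LSK cells (lineage-negative, Sca-1-positive and Kit-positive) are the bone marrow compartment that holds stem cells and multipotent progenitors. The libraries were chosen by their labels alone, 6 EAP and 6 wild type, which makes 12 of the 30 libraries in the series. All mice were C57BL/6, and all were sampled before any myeloid disease. EAP stands for Egr1+/-, Apc del/+ marrow that carries a Trp53 shRNA and was transplanted into wild type recipients. It came as 3 libraries without a mutagen (EAP) and 3 in which donor and recipient both received the alkylating mutagen ENU (EAP with ENU). The wild type side held 3 libraries of wild type marrow with a luciferase shRNA, also transplanted into wild type recipients (transplanted WT), and 3 of mice with neither a transplant nor an shRNA (WT). Transplanted animals were sampled about 2 months after transplantation. The haploinsufficiency and the knockdown always occur together, so their shares in any difference cannot be told apart. Only the blood-forming cells carry them, because the recipients are wild type.

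The pooling asks which transcripts differ between EAP and wild type libraries across the transplantation and ENU groups. All 6 EAP libraries, but only 3 of the 6 wild type libraries, were transplanted and carry an shRNA. Only EAP libraries had ENU. Parts of transplantation, the shRNA vector and ENU in a pooled difference therefore cannot be fully told apart from that of the genotype. The p53 protein, encoded by Trp53, is a transcription factor that DNA damage stabilises and that drives cell cycle arrest and apoptosis genes. Egr1 is an immediate early transcription factor that restrains the cycling of stem cells. Apc is a scaffold of the complex that degrades beta-catenin, the effector of Wnt signalling, which acts through TCF factors.

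The values are the authors' deposited normalised expression signal per gene, used on the log2(value + 1) scale. Each gene was tested with limma, and it passed where the Benjamini-Hochberg adjusted p over all 11383 genes tested was under 0.05. Library totals ran from 808377 to 1437201 in the EAP libraries and from 868105 to 1206739 in the wild type libraries, and the sequencing depth is unknown. Nothing states that the libraries of a group came from separate animals, so p-values measure the spread between these libraries. EAP 1, transplanted WT 3 and WT 2 stood apart from the other 9 on the first principal component, which held 50.8% of the variance. The transplant label of EAP 1 names wild type marrow, against its other labels, but its Trp53 value was the lowest of all 12 libraries. Transcripts of the Y-linked genes Ddx3y, Uty, Kdm5d and Eif2s3y were found in 11 libraries and were at 0, or 0.042 for Ddx3y, in WT 2. The LSK markers were present, with Ly6a (Sca-1) at 78.0 to 245 in EAP and 107 to 199 in wild type libraries, and Kit at 65.3 to 348 in EAP and 158 to 598 in wild type libraries. Of 14 LSK markers listed, 11 had negative differences and none passed. Their median was -0.21, and -0.027 against transplanted WT alone. EAP 1 had the lowest Kit value and the lowest mean log2(value + 1) of that list, 6.38. Of the markers that lineage depletion removes, Cd3e was at 0.243 to 2.15 in EAP and 0 to 5.51 in wild type libraries. Itgam, by contrast, was at 7.43 to 33.4 in EAP and 14.8 to 30.4 in wild type libraries. The list of these markers had 7 tested members, none passing, with a median log2 difference of -0.27 that was -0.045 without EAP 1. At an unadjusted limma p under 0.05, 3 were lower in EAP cells (beside 3.42% of all genes). These were Cd4 (1.04 ± 0.749 in EAP, 4.48 ± 3.53 in wild type), Cd5 (0.802 ± 0.743 in EAP, 2.41 ± 1.16 in wild type) and Il7r (3.21 ± 3.14 in EAP, 13.8 ± 11.7 in wild type; SD, n = 6 each). In bulk RNA, fewer cells of a type and less RNA per cell cannot be told apart.

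Trp53 itself (chr11:69580359-69591873, mm10) fell in the EAP cells. Its lowest, median and highest values were 65.5, 91.1 and 173 in the 6 EAP libraries, against 213, 323 and 370 in the 6 wild type libraries. Every EAP library lay below every wild type library, and the group means were 104 ± 42.1 in EAP and 304 ± 62.1 in wild type (SD, n = 6 each). The difference was -1.61 ± 0.25 on the log2 scale (SE), with a limma adjusted p of 0.0187. The 2 haploinsufficient genes did not pass. Egr1 ran from 57.7 to 840 in EAP libraries, a range that enclosed that of the wild type libraries, 133 to 212, and its log2 difference was 0.075 ± 0.55. Apc lay between 5.41 and 11.0 in EAP and between 4.23 and 13.4 in wild type libraries, with a log2 difference of 0.068 ± 0.28. The sign of both differences turned in some alternative fits. A value per gene does not set the deleted part of an allele apart from the rest.

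Of the genes tested, 14 passed (0.123%), 8 of them higher (0.0703%) and 6 lower (0.0527%) in EAP cells. The groups did not overlap for 13 of the 14, against 82 genes (0.72%) over the whole table, 28 of them higher (0.246%) and 54 lower (0.474%). At an unadjusted p under 0.05 there were 711 genes (6.25%), 322 higher (2.83%) and 389 lower (3.42%). The median log2 difference of all genes was -0.0057, with 5584 differences positive and 5799 negative. Mettl7a2, at an adjusted p of 0.0364, was the last gene inside the threshold, and 1700112E06Rik, at 0.0542, was the first outside it.

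**Figure D1:**
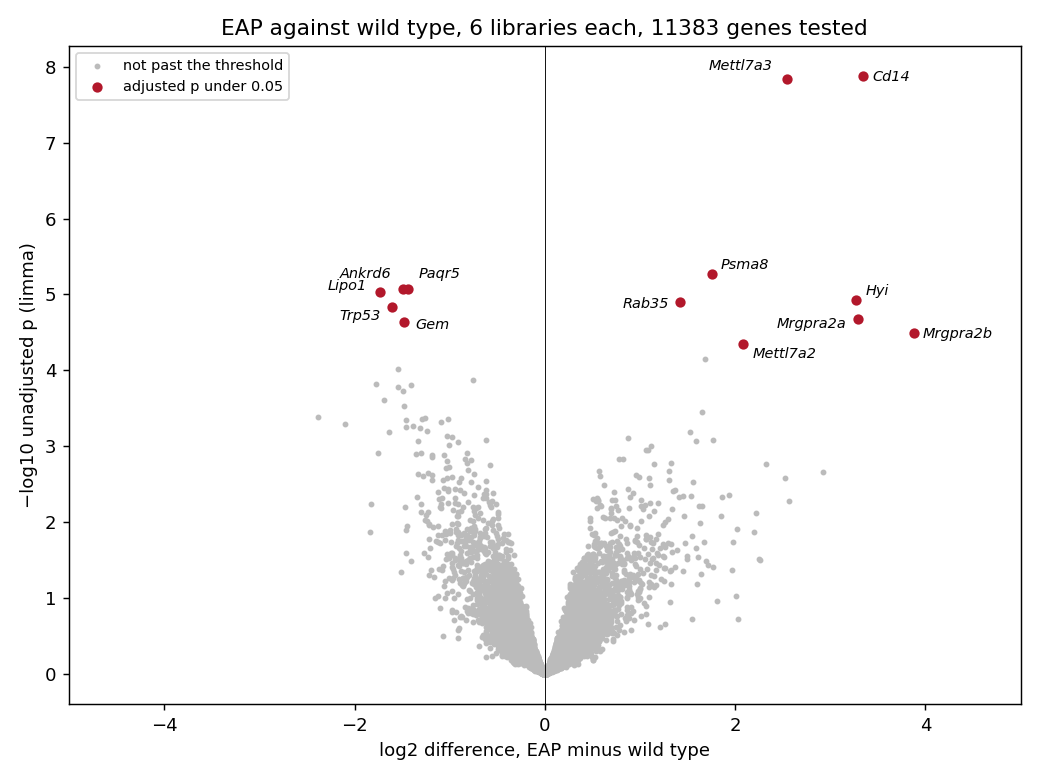
Each point is 1 of the genes tested, placed by its log2 difference (EAP minus wild type, 6 libraries each, horizontal) and its -log10 unadjusted limma p (vertical); red points are genes that passed. Cd14 and Mettl7a3 stand clear of the others; the horizontal place of Mettl7a3, listed at 0 in every wild type library, depends on the pseudocount.

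Cell surface receptors headed the genes that rose. Cd14 (chr18:36725067-36726798), the co-receptor with which myeloid cells recognise lipopolysaccharide, had values of 11.5, 19.3 and 32.6 (lowest, median, highest) in EAP libraries, against 0.319, 0.95 and 2.57 in wild type libraries. The lowest EAP library was thus above the highest wild type library. The log2 difference was 3.35 ± 0.29 (adjusted p 8.32e-05). Across the subgroups its 3-library means were 16.7 in EAP, 24.2 in EAP with ENU, 0.913 in transplanted WT and 1.28 in WT.

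Cd14 was the only passing member of the 25 monocyte and macrophage markers listed. Among the 16 of these that could be tested, 8 differences were positive and 8 negative. At an unadjusted limma p under 0.05, 2 were higher and 6 lower (beside 2.83% and 3.42% of all genes). The median was 0.21, but -0.069 without EAP with ENU 1, -0.012 without the 3 libraries that stood apart and -0.095 against transplanted WT alone. The summed level of the list was 152 to 414 in EAP and 121 to 306 in wild type libraries. Against the direction of Cd14, the iron exporter Slc40a1 had means of 3.38 in EAP and 10.0 in wild type cells, and the haem-degrading enzyme Hmox1 had 4.39 in EAP and 10.1 in wild type cells; neither passed. The part of monocytic cells in the Cd14 result was not tested.

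Mrgpra2a and Mrgpra2b, neighbouring genes for Mas-related G protein-coupled receptors on chromosome 7, rose as well. Mrgpra2b (chr7:47463806-47528862) had 15.0, 43.0 and 291 as its lowest, median and highest values in EAP libraries, against 0.368, 2.52 and 8.72 in wild type libraries. The EAP values were spread over a wide range, with EAP 1 far above the rest, but none came down to the wild type libraries. The log2 difference was 3.88 ± 0.64 (adjusted p 0.0296). Mrgpra2a (chr7:47426328-47452139) had 5.81, 15.2 and 57.2 in EAP libraries, against 0, 0.841 and 4.16 in wild type libraries, a log2 difference of 3.29 ± 0.52 (adjusted p 0.0236). The groups again did not overlap. Of the distinct 50-base stretches in the transcripts of Mrgpra2a, 87.1% also occur in Mrgpra2b, and 81.2% of those of Mrgpra2b occur in Mrgpra2a, so the split of reads between the 2 genes is uncertain.

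The RefSeq promoters of this pair are shown because they are the same sequence. The RefSeq windows around their starts (GRCm38.p6, minus strand) are identical at 300 of 300 bases. They lie at chr7:47452115-47452414 for Mrgpra2a and chr7:47489533-47489832 for Mrgpra2b, and read as follows, all in lower case since no motif is marked.
Mrgpra2a and Mrgpra2b promoter: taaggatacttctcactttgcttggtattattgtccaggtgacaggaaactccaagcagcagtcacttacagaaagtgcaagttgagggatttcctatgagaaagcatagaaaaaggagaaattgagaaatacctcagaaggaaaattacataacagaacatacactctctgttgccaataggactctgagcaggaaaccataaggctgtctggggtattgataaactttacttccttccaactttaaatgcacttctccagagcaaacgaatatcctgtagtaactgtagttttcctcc
Neither holds a pair of p53 core motifs (CATGNNNNNNCATG), an Egr1 motif (GCGTGGGCG or GCGGGGGCG) or a TCF motif (CTTTGAT or CTTTGAA) on either strand. The 2 annotations differ in the start of Mrgpra2b. GENCODE places this minus-strand gene at chr7:47463806-47528862, so its RefSeq window lies inside the gene there. For Mrgpra2b, the identity and the absence of motifs therefore hold for the RefSeq start only. RefSeq windows were matched for 8 of the 14 passing genes, and the only match was CTTTGAA in the promoter of Paqr5. That motif occurs in 5.93% of the 27025 promoters searched.

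The other genes that rose encode enzymes, a proteasome subunit and a regulator of membrane traffic. Mettl7a3 (chr15:100334929-100340375), of the methyltransferase-like 7A family, was listed at 0 in all 6 wild type libraries. Its values in the EAP libraries were 7.55, 2.45 and 5.40 without ENU and 5.91, 4.54 and 4.59 with ENU, and the adjusted p was 8.32e-05. Its neighbour Mettl7a2 (chr15:100353200-100361840) had 1.28, 4.97 and 8.29 as lowest, median and highest values in EAP libraries. It was at 0 in 4 wild type libraries, at 0.058 in WT 3 and at 1.75 in WT 2. Because of WT 2 the groups overlapped for this gene, and its log2 difference was 2.09 ± 0.36 (adjusted p 0.0364). Mettl7a2 fell outside the rule for named genes and is given because its values, like those of Mettl7a3, are low and share sequence. Of their 50-base stretches, 45.9% in Mettl7a3 and 52.6% in Mettl7a2 occur in other members of the family. Mettl7a1, the third copy, ran from 54.3 to 132 in EAP and from 44.6 to 145 in wild type libraries.

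Hyi (chr4:118359990-118362744), which encodes a putative hydroxypyruvate isomerase and is annotated as a polymorphic pseudogene, had 15.8, 26.0 and 29.4 in EAP libraries. In wild type libraries it had 0, 0.917 and 13.5. The highest wild type value belonged to WT 2, and the other 5 were at most 2.02. The log2 difference was 3.28 ± 0.50 (adjusted p 0.0181). Psma8 (chr18:14706151-14762301), an alpha subunit of the proteasome known from the testis, had 40.4, 45.4 and 57.2 in EAP libraries, against 5.87, 14.1 and 19.2 in wild type libraries. Its log2 difference was 1.75 ± 0.25 (adjusted p 0.0177). Rab35 (chr5:115631908-115647736), a small GTPase of endosome recycling, had 48.8, 60.3 and 67.7 in EAP libraries, against 16.0, 20.1 and 40.2 in wild type libraries. Both genes were expressed in all 12 libraries, with a gap between the groups. The log2 difference of Rab35 was 1.42 ± 0.22 (adjusted p 0.0181).

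The genes that fell beside Trp53 include those of a membrane receptor, signalling proteins and a lipase. Lipo1 (chr19:33775498-33787459), of the acid lipase family, had 3.42, 5.37 and 6.07 in EAP libraries, against 12.3, 19.1 and 29.6 in wild type libraries. Its log2 difference was -1.73 ± 0.26 (adjusted p 0.0177). The wild type subgroups differed as well, at 13.4 ± 1.49 in transplanted WT and 26.8 ± 3.29 in WT (SD, n = 3 each). Ankrd6 (chr4:32804035-32950841), whose product diversin is an adaptor between Wnt pathway branches, had 0.676, 1.97 and 2.51 in EAP libraries, against 4.79, 7.19 and 7.82 in wild type libraries. Its log2 difference was -1.49 ± 0.22 (adjusted p 0.0177). Every EAP value of both genes lay under every wild type value.

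Gem (chr4:11704457-11714752), a GTPase that inhibits voltage-gated calcium channels, had 7.88, 9.77 and 22.2 in EAP libraries, against 26.2, 32.7 and 39.0 in wild type libraries. The log2 difference was -1.48 ± 0.24 (adjusted p 0.0236). Paqr5 (chr9:61953481-62026856), a membrane progestin receptor, had 8.63, 11.5 and 17.7 in EAP libraries, against 24.4, 34.2 and 44.1 in wild type libraries, a log2 difference of -1.44 ± 0.21 (adjusted p 0.0177). Neither gene overlapped between the groups.

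**Figure D2:**
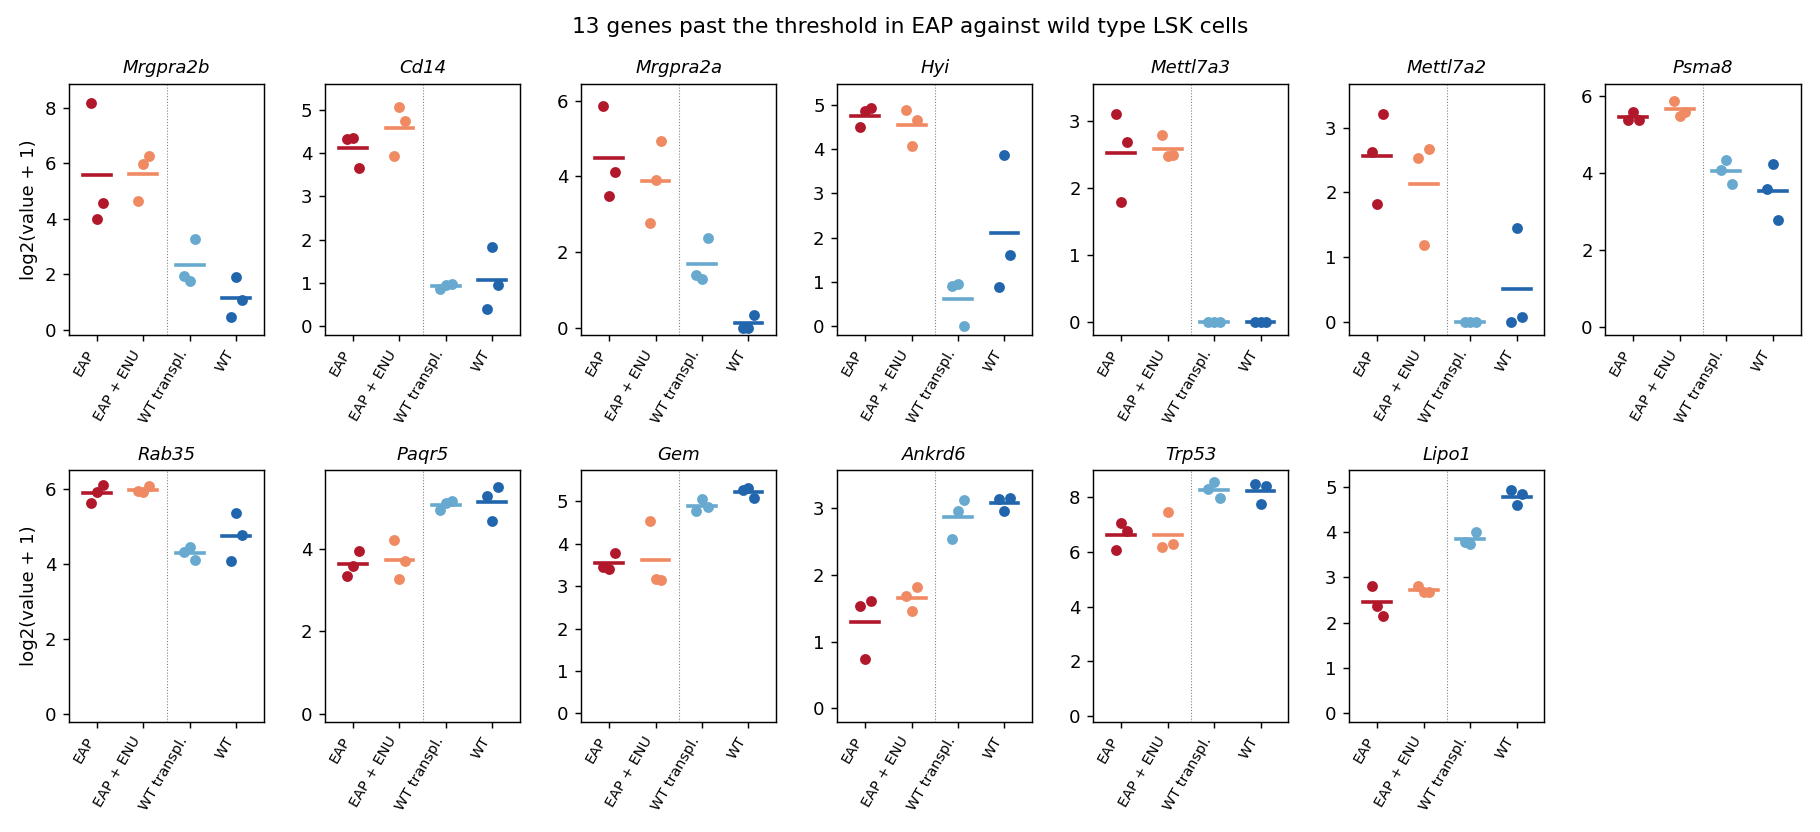
Values of 13 passing genes as log2(value + 1), 1 panel per gene; points are libraries, short bars the means of 3 libraries, and the dotted line parts EAP and EAP with ENU (left) from transplanted WT and WT (right). The 2 sides are apart for every gene but Mettl7a2, where WT 2 reaches into the EAP range.

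The subgroups within each side were then compared for the same genes, in a fit of 4 group means. ENU made no difference that passed in EAP cells, for any gene tested (0%), while 595 genes (5.23%) had an unadjusted p under 0.05. No gene of the 14 was among these 595. The 14 were selected on the same libraries by a test that counts spread between subgroups as error. Such a test tends to leave out genes that differ between subgroups. The absence of the 14 from these 595, or from the passing genes for transplantation, is therefore no independent check. Transplantation in wild type cells gave 3 passing genes (0.0264%), none of them among the 14, and 817 (7.18%) at an unadjusted p under 0.05. The count of 3 became 5 without WT 2 and 1 without WT 1, WT 3, transplanted WT 2 or transplanted WT 3. The 817 genes included 3 of the 14. Lipo1 was lower by 0.95 on the log2 scale in transplanted WT than in WT (unadjusted limma p 0.0028), Hyi differed by -1.49 (0.036) and Mrgpra2a by 1.57 (0.032). For Lipo1 and Mrgpra2a the transplanted WT libraries thus lay nearer to the EAP libraries. With the 3 transplanted WT libraries as the only reference, 5 genes passed, namely Cd14, Mettl7a3, Psma8, Hyi and Rab35. In that smaller fit the other 9 kept their direction at adjusted p of 0.175 to 0.591, Trp53 among them.

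Most of these calls rested on all 12 libraries together. Only Cd14 and Mettl7a3 passed whichever library was left out, with adjusted p of at most 0.000599 and 0.000608. Psma8 passed in 9 of the 12 such fits, Lipo1 in 8, Ankrd6 and Paqr5 in 7, and Trp53 and Hyi in 5. Rab35 and Mrgpra2a passed in 4, Gem and Mrgpra2b in 3, and Mettl7a2 in 2. The filter, a value of at least 1 in at least 6 libraries, was set once on all 12 libraries and kept in these fits. Mettl7a3, at 0 in every wild type library, met it only through the EAP libraries. Its passing in all 12 fits is therefore no independent check. Without EAP 3, EAP with ENU 3 or WT 1, only Cd14 and Mettl7a3 passed, and without WT 3 Psma8 passed beside them. The count was 4 without transplanted WT 2, 7 without transplanted WT 1, 8 without EAP with ENU 1 and 9 without EAP with ENU 2. It was 12 to 16 without any of the other 4. No gene of the 14 changed direction in any of these fits, and the highest adjusted p that any of them reached was 0.131. Trp53 kept a log2 difference of -1.77 to -1.49, at adjusted p of 0.0111 to 0.0786. Without the 3 libraries that stood apart, 28 genes passed, including 13 of the 14; Gem, at an adjusted p of 0.0684, was the exception.

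**Figure D3:**
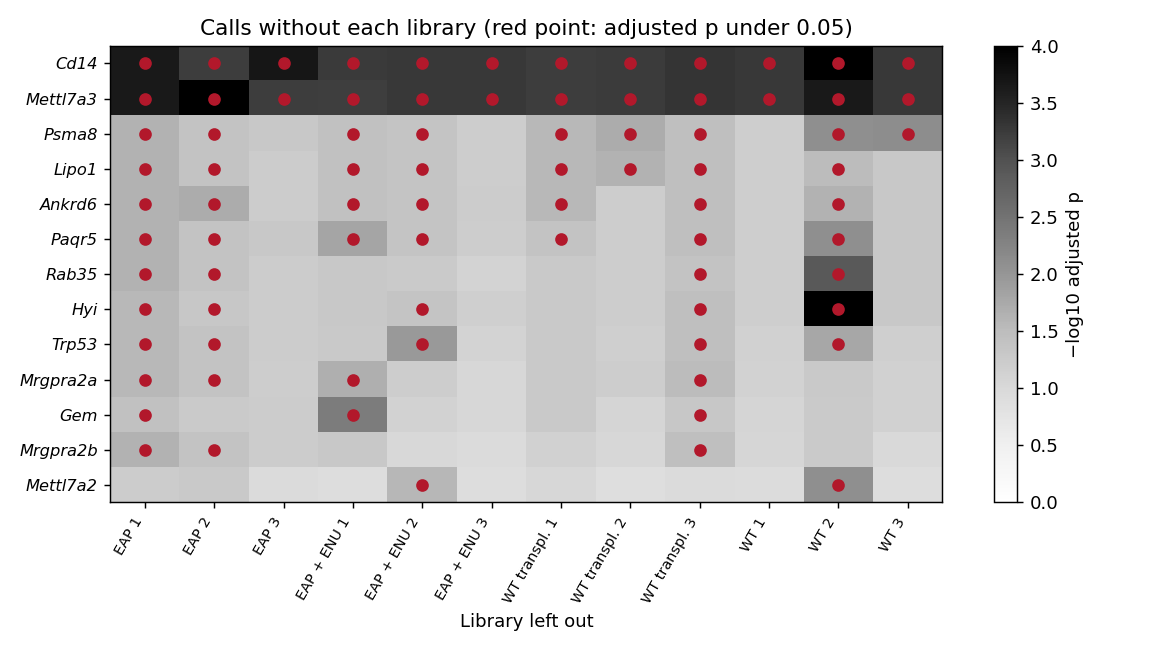
Rows are 13 passing genes and columns the library left out, with EAP libraries on the left and wild type on the right; the grey scale is the -log10 adjusted p and a red point marks an adjusted p under 0.05. The rows of Cd14 and Mettl7a3 hold a point in all 12 columns, and the columns of EAP 3, EAP with ENU 3 and WT 1 hold 2 points each.

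Further genes of small p did not pass. Among those with higher values in EAP cells, Pmaip1 (chr18:66458533-66465565), the p53 target that encodes the pro-apoptotic protein Noxa, had 8.77, 13.4 and 16.5 in EAP libraries, against 0.74, 4.21 and 7.72 in wild type libraries. The groups did not overlap, and the log2 difference was 1.65 ± 0.35 (adjusted p 0.169). Tuba1c, an alpha-tubulin, averaged 218 ± 81.1 in EAP and 75.7 ± 33.3 in wild type cells (SD, n = 6 each; adjusted p 0.2). Plscr2, a phospholipid scramblase, averaged 8.57 ± 4.58 in EAP and 2.26 ± 1.69 in wild type cells. Larp1b, a La-related RNA-binding protein, averaged 12.8 ± 5.72 in EAP and 5.14 ± 1.44 in wild type cells. Hk3, a hexokinase of myeloid cells, averaged 191 ± 17.2 in EAP and 96.9 ± 39.9 in wild type cells, with no overlap. Within the wild type side, Hk3 was higher by 1.03 in transplanted WT than in WT (log2, unadjusted p 0.0027).

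Among those with lower values, Wdfy1, an adaptor of endosomal signalling, had the smallest p of those with a mean of at least 5 in wild type cells, at an adjusted p of 0.0882. It averaged 44.9 ± 6.22 in EAP and 76.1 ± 8.33 in wild type cells (SD, n = 6 each), with no overlap. A pair of T cell genes followed, both at an adjusted p of 0.0934. Tcf7, which encodes the Wnt effector and T cell factor TCF1, averaged 1.63 ± 1.14 in EAP and 7.48 ± 2.55 in wild type cells, and Cd247, the zeta chain of the T cell receptor, averaged 2.84 ± 1.21 in EAP and 9.31 ± 3.45 in wild type cells. Neither overlapped between the groups. Tpm2, a tropomyosin, Hnf4a, a nuclear receptor of liver and gut, and Slc40a1 had adjusted p of 0.147, 0.174 and 0.174. Hnf4a was at most 1.37 in EAP libraries and ran from 1.27 to 25.8 in wild type libraries.

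Tcf7 is one of 34 listed T and NK cell markers, which do not include Cd247. Of the list, 25 could be tested and none passed. Their differences were negative for 19 and positive for 6, with a median of -0.26. It was -0.11 without transplanted WT 2 and -0.81 against transplanted WT alone, and transplanted WT stood above WT by a median of 0.62. Summed levels of that list overlapped, at 743 to 2335 in EAP and 777 to 2427 in wild type libraries. Cd4 had a median of 0.823 in EAP and 4.25 in wild type libraries, and Cd3e a median of 1.37 in EAP and 0.669 in wild type libraries. The part of T cells in these values was not tested.

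Since Egr1 and Apc lie together on chromosome 18, its genes were described by their place. Of 271 tested genes on the chromosome, 2 passed (beside 0.123% of all genes) and 5 did not overlap (1.85%, beside 0.72% of all genes). The share without overlap on other chromosomes ran from 0% on chromosome 16 to 1.39% on chromosome 1 and 1.47% on chromosome 10. Chromosome 4 had 3 passing genes among 710 tested. Of the 5 genes on chromosome 18, Cd14, Psma8, Tmco6 and Pmaip1 were higher, and Tmem241 was lower. Cd14 starts 1.87 Mb from the start of Egr1, Psma8 20.2 Mb and Pmaip1 31.6 Mb, while Apc is at 0.639 Mb. Tmco6, a neighbour of Cd14, averaged 42.3 ± 5.20 in EAP and 28.2 ± 3.51 in wild type cells (SD, n = 6 each; adjusted p 0.342). Tmem241 averaged 8.09 ± 1.89 in EAP and 18.5 ± 8.73 in wild type cells (adjusted p 0.35). Within 10 Mb of Egr1, 87 genes were tested, Cd14 passed, and the median log2 difference was 0.026. These neighbours were chosen after their values were seen.

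**Figure D4:**
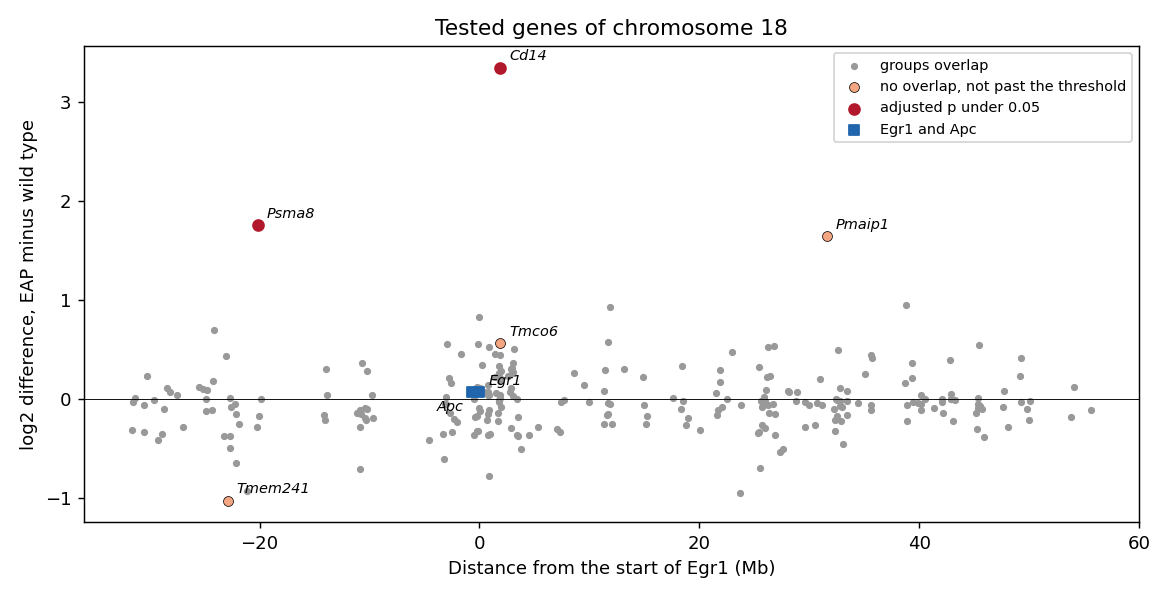
Tested genes of chromosome 18 by distance from the start of Egr1 (Mb, horizontal) and log2 difference, EAP minus wild type (vertical); red points passed, orange points did not overlap between the groups, and blue squares are Egr1 and Apc. Genes around Egr1 scatter about 0, with Cd14 at 3.35.

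Gene lists were read by their counts and medians, beside the median of -0.0057 and the 0.123% of passing genes over the whole table. Of 55 p53 targets, 47 could be tested and none passed. Their differences were as often positive (22) as negative (25), and the median was -0.014. Beside Pmaip1, the genes of smallest p were Sesn1, a stress-induced regulator of mTOR, at 166 ± 24.9 in EAP and 249 ± 63.0 in wild type cells, and Phlda3, an inhibitor of Akt, at 9.58 ± 5.38 in EAP and 24.7 ± 18.3 in wild type cells (SD, n = 6 each). Neither passed. The classical targets Cdkn1a and Mdm2, picked after their values were seen, had log2 differences of 0.35 ± 0.24 and -0.014 ± 0.19. Of 13 tested p53 regulators, Trp53 alone passed.

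Wnt signalling components had 30 tested members and 1 passing gene, Ankrd6, with a median of 0.030 that was -0.11 without EAP 2, -0.099 without the 3 libraries that stood apart and 0.12 against transplanted WT alone. The scaffolds Dvl1 and Axin1 had log2 differences of 1.56 ± 0.43 and 1.62 ± 0.50, and did not pass (adjusted p 0.367 and 0.45). Axin1 averaged 62.8 ± 24.4 in EAP and 22.3 ± 17.5 in wild type cells, but EAP 1, at 15.1, lay within the wild type range. Immediate early genes, Egr1 among them, had 28 tested members, none passing, and a median of 0.19 that moved to -0.035 without EAP 2. Their summed level spanned 3634 to 23665 in EAP and 6350 to 12681 in wild type libraries.

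Myeloid progenitor granule and receptor genes had the highest median of the lists described. All 29 were tested and none passed, but 28 differences were positive, and 11 were higher at an unadjusted p under 0.05 (beside 2.83% of all genes). The median was 0.69. The serine protease genes Prtn3 and Ctsg averaged 841 ± 377 and 635 ± 317 in EAP cells, against 325 ± 126 and 194 ± 140 in wild type cells (SD, n = 6 each). F13a1, coagulation factor XIII A of monocytic cells, averaged 80.1 ± 55.4 in EAP and 13.5 ± 8.6 in wild type cells. EAP 2 was the lowest EAP library for all 3 of these genes and lay within the wild type range for each. EAP 3 lay within that range for Ctsg. The summed level of the list was 6522 to 28474 in EAP and 6441 to 14136 in wild type libraries. By that sum, EAP 2 (6522) and EAP 3 (9211) lay within the wild type range. EAP 2 also had the lowest share of ribosomal protein transcripts, 2.18%, against 4.14% to 6.27% in the other EAP and 3.67% to 6.16% in the wild type libraries, and the part of this in the result was not tested. Within wild type, transplanted WT was also above WT, with a median of 0.62 over this list. For Ctsg, Prtn3 and F13a1 that log2 difference was 2.26, 1.01 and 1.59 (unadjusted limma p 0.00048, 0.032 and 0.12). Set against transplanted WT, EAP without ENU differed by 0.22 ± 0.47, 0.43 ± 0.41 and 1.30 ± 0.93 for these 3 genes (SE). EAP with ENU differed by 1.39 ± 0.47, 1.17 ± 0.41 and 2.16 ± 0.93. Against transplanted WT alone, the EAP median was 0.46, beside 0.22 for EAP without ENU and 0.72 for EAP with ENU. Within EAP, the median of EAP with ENU minus EAP was 0.50 for this list. Late neutrophil markers had a median of 0.33, which was -0.059 against transplanted WT alone. Their summed level was 189 to 380 in EAP and 144 to 252 in wild type libraries. The list for eosinophils, basophils and mast cells had 15 tested genes and a median of 0.48, with a summed level of 309 to 1093 in EAP and 161 to 1141 in wild type libraries.

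Lymphoid priming genes were mostly lower, with 18 of 22 differences negative, 7 lower at an unadjusted p under 0.05 (beside 3.42% of all genes), none passing, and a median of -0.41. Blnk, an adaptor of the pre-B cell receptor, averaged 6.48 ± 2.75 in EAP and 18.6 ± 7.11 in wild type cells. Rag2, a subunit of the V(D)J recombinase, averaged 4.89 ± 1.85 in EAP and 15.1 ± 9.0 in wild type cells. Lck, the T cell kinase, averaged 68.5 ± 29.0 in EAP and 133 ± 36.4 in wild type cells. All 3 overlapped between the groups. B cell markers, which share Blnk, had a median of -0.57 over 15 tested genes. Against transplanted WT alone, the median of the lymphoid priming list was -0.27 and that of the B cell list -0.64. Without WT 1 the lymphoid priming median was -0.25. That of the B cell list was -0.35 without transplanted WT 2 and -0.22 without the 3 libraries that stood apart.

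Type I interferon response genes were also mostly lower, with 34 of 38 differences negative. At an unadjusted limma p under 0.05, 9 were lower (beside 3.42% of all genes), and none passed. The median of the list was -0.37, and -0.20 against transplanted WT alone. Ifit3 and Ifit1, which bind foreign RNA or act with proteins that do, averaged 4.97 ± 2.44 and 15.8 ± 6.23 in EAP cells, against 15.6 ± 7.01 and 33.9 ± 13.2 in wild type cells (SD, n = 6 each). Irf7, a transcription factor of the interferon genes, averaged 74.7 ± 11.5 in EAP and 117 ± 27.0 in wild type cells. WT had higher values than transplanted WT for Ifit3 (log2 difference, transplanted WT minus WT, -1.04, unadjusted p 0.0093) and for Ifit1 (-0.86, 0.014).

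Mitosis genes were mostly higher, with 48 of 50 differences positive and a median of 0.36. At an unadjusted limma p under 0.05, 9 were higher (beside 2.83% of all genes), and none passed. The kinetochore genes Cenpf and Cenpe averaged 20.4 ± 3.51 and 28.7 ± 2.65 in EAP cells, against 12.8 ± 1.82 and 19.5 ± 3.08 in wild type cells. Cenpe did not overlap between the groups. Against transplanted WT alone the median of the list was 0.054, and transplanted WT stood above WT by a median of 0.53. Histone transcripts, a list kept for RNA quality and handling, had a median of 0.42 in the pooled comparison and 0.18 against transplanted WT alone. For that list, transplanted WT stood above WT by a median of 0.72. The part of RNA handling in the histone values was not tested. DNA replication genes (median 0.012), DNA repair genes (-0.065) and haematopoietic stem cell genes (-0.10) had no passing member.

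**Figure D5:**
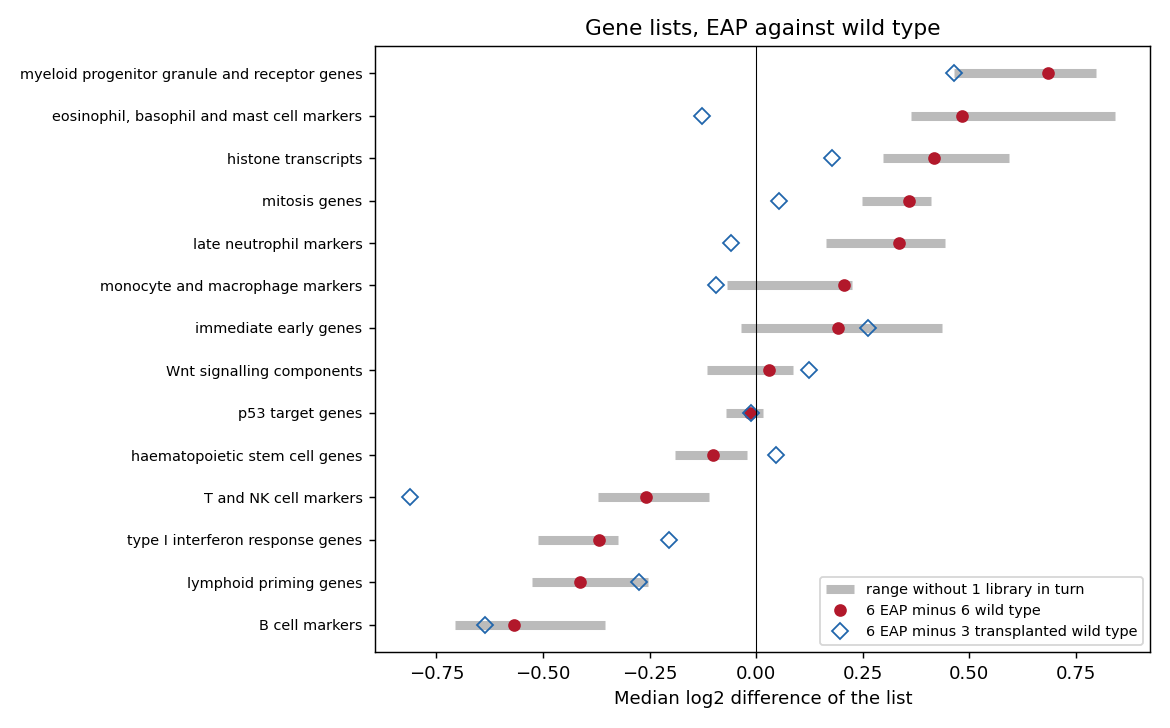
Median log2 difference of 14 gene lists, EAP minus wild type; red points are the 6 against 6 libraries, grey bars the range of that median when each library is left out in turn, and blue diamonds the 6 EAP libraries against the 3 transplanted WT libraries alone. The diamonds of the mitosis, late neutrophil and eosinophil, basophil and mast cell lists lie near 0, at 0.054, -0.059 and -0.13, while that of the myeloid granule list is at 0.46.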

How the data were processed

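Per the labels' protocols and the submitters' processing notes, RNA of the sorted cells was sequenced from stranded mRNA libraries and processed with bcl2fastq, FastQC, TopHat, SAMtools and edgeR on the mm10 build. The deposited signal is a normalised expression value per gene. Its file is named as CPM, but library totals differ, so they were handled as a signal of unstated scaling. The test planned for CPM was kept, and no reads could be recovered from the values.

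Of 11740 genes in the table, 11383 with a value of at least 1 in at least 6 of the 12 libraries were tested. limma 3.58.1 in R 4.3.3 (lmFit, eBayes with trend) compared 6 EAP with 6 wild type libraries on log2(value + 1), with Benjamini-Hochberg adjustment. This scale understates changes of low genes. Contrasts within each side came from a fit of 4 group means. Positions come from GENCODE vM21, in which 11349 tested names were found. Promoters come from RefSeq (GRCm38.p6).

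The members, gene lists and tests were chosen with earlier results of these data known. Genes named are Trp53, Egr1 and Apc. In each direction follow up to 12 passing genes of largest difference with a mean of at least 5 and no overlap, filled to 12 by smallest p. Of each list described, up to 4 members of smallest p are added. Predicted genes are not named as a rule, and some genes that the rule selects, 1 passing gene among them, are not reported here. Tables and figures used Python 3.11.15, pandas 2.3.3 and matplotlib 3.10.9.

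On simulated data for this comparison over the same 11383 genes, the test recovered 34 of 67 genes changed by 1 on the log2 scale. It recovered 60 of 67 changed by 2 and 65 of 66 changed by 3, with 12 false calls. The simulated noise was normal and independent between genes and libraries, and only genes with a mean of at least 5 were changed. It held no shift shared by a whole library and no changed gene of lower mean, so these figures need not hold for the real libraries. The alternatives were another pseudocount, filters, rescaling, a replicate block, array weights, subsets of the groups and leaving out each library. A term for, and a fit without, the 3 libraries that stood apart were chosen after seeing the data.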

Additional observations from a re-analysis of the deposited data

Results flagged for a closer look

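In 13 of 116 groups of 6 values, 1 library lay far from the other 5 by Dixon's test, of which chance gives about 1 in 20 groups. EAP 1 was the lowest EAP library for Rab35, at 5.64 on the log2(value + 1) scale, still above every wild type library. EAP 2 was the lowest for Ankrd6, at 0.75, and among wild type libraries transplanted WT 1 was the lowest for the same gene, at 2.53. Transplanted WT 3 was the lowest wild type library for Tpm2, at 2.93. EAP 3 was the highest EAP library for Hnf4a, at 1.24, and WT 2 the highest wild type library for Mettl7a2, at 1.46.

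Several flags were on the mean log2(value + 1) of a list. EAP 1 had the lowest EAP means for Wnt signalling components (3.21), haematopoietic stem cell genes (4.01) and LSK defining markers (6.38), and the highest total of all libraries, 1437201. EAP 2 stood out for late neutrophil markers (1.96) and DNA repair genes (4.83), and WT 2 for DNA repair genes (4.68). The values of EAP 2 and WT 2 were the ends of their groups, and no cause was tested.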

How the results depend on the processing

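The 14 genes that passed in EAP against wild type kept their direction in every alternative fit in which they were tested. The number of passing genes was 12 with a pseudocount of 0.1, 14 with no filter on low values, 14 with median-of-ratios rescaling, 11 with a minimum of 5 (which drops 3 of them from the test) and 18 as a contrast of 4 group means. It was 8 with the replicate number as a block, 315 with array weights, 49 with a term for the 3 libraries that stood apart, 28 without those libraries, 5 against transplanted WT alone, 2 with EAP without ENU as the only EAP group and 2 with EAP with ENU as the only one. Leaving out 1 library in turn gave 2 to 16. Array weights gave 1693 genes for ENU within EAP and 4741 for transplantation within wild type, where their estimation stopped before convergence. Every other alternative gave 0 for ENU, with 234 to 1528 genes at an unadjusted p under 0.05. For transplantation (3 genes), the replicate block gave 1, the term for the libraries that stood apart 284, and leaving out 1 library 1 to 5. The cause of these shifts was not tested, beyond the smaller number of libraries in the subsets. Replicate numbers do not pair the libraries: of 18 same-number pairs, 5 had deviations correlated above 0.1 (r from -0.65 to 0.60), and other numbers reached 0.73. The block kept Trp53, Cd14, Mettl7a3, Psma8, Ankrd6, Paqr5, Hyi and Rab35.

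Signs turned for 3 genes that did not pass. Egr1 was -0.016 with the term for the libraries that stood apart, -0.57 with ENU-exposed EAP alone, and -0.38 to 0.39 without 1 library in turn. Apc was -0.064 and -0.012 in these fits and, without the libraries that stood apart, -0.17, with -0.063 to 0.23 without 1 library. Mdm2 was 0.16 against transplanted WT alone and 0.14 with EAP without ENU alone, and -0.13 to 0.059 without 1 library. With unknown depth, low values such as those of Mettl7a3 and Mettl7a2 have no counting error to set beside them.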

Other observations

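Lists of other functions and cell types had no passing member. Oxidative phosphorylation genes had 51 of 74 differences positive and a median of 0.049, which was -0.15 without EAP 1 and 0.25 without EAP 2. MHC class II genes had a median of -0.066 over 10 genes, with -0.30 without WT 1 and 0.21 without transplanted WT 3. Their summed level was 1056 to 2517 in EAP and 754 to 3820 in wild type libraries. Megakaryocyte markers had a median of 0.24 over 23 tested genes, which was 0.12 without WT 2 and 0.066 against transplanted WT alone. Erythroid markers had a median of 0.18 over 19 tested genes, which was 0.026 without EAP with ENU 3 and -0.080 against transplanted WT alone, with summed levels of 287 to 740 in EAP and 340 to 557 in wild type libraries for the erythroid list.

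The pooled comparison can be cut into pairs of comparisons that share no library. Across 11383 genes, which are not independent, the differences EAP minus transplanted WT and EAP with ENU minus WT had a Pearson r of -0.018. The other division, EAP minus WT and EAP with ENU minus transplanted WT, had an r of 0.14. These are descriptions of the 12 libraries.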
